A study of Catharanthus roseus with 35 samples.

Results

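Leaves of the third pair, counted from the shoot apex, were compared between flowering Catharanthus roseus plants of the cultivar Little Bright Eye that were kept in a growth chamber (indoors) and plants that had been moved outdoors into direct sunlight. The comparison held 3 outdoors and 3 indoors samples of the 35 samples in the series, and its members were chosen by the sample labels alone. Indoors, plants grew under fluorescent light at 25 °C with 16 h of light and 8 h of dark, at 70 µmol of photons per square metre and second. Outdoors, light and temperature were natural, and the exposure had lasted several months. Leaves were taken on a hot sunny afternoon. Light, heat and other factors that differ outdoors cannot be told apart. Each sample was RNA of a whole leaf without its central vein, and according to the methods 3 plants of each growth condition gave all leaf pairs. Libraries were sequenced as Nanopore cDNA and counted over 35722 genes of the IDIO+ transcriptome, the gene models built in the study. The 6 Nanopore libraries of leaf pair 2, made in the same way from the same plants, entered the same fit, and 12 Illumina libraries of leaf pairs 1 and 4 were set beside it.

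C. roseus is the source of the anticancer monoterpenoid indole alkaloids (MIAs). Their synthesis starts in the internal phloem-associated parenchyma, where the iridoid branch makes loganic acid from geraniol. It moves to the epidermis, where loganic acid is turned into secologanin and joined to tryptamine to give strictosidine. Strictosidine is then rearranged along the central pathway to catharanthine and tabersonine, and the late steps, some of them in idioblasts and laticifers, turn tabersonine into vindoline. Catharanthine and vindoline are the partners that are coupled into the dimeric alkaloids.

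The leaf pair 3 libraries were of like depth. Rounded totals lay between 452851 and 732948 counts, 13547 to 14241 genes had a count, and 1 count was worth 1.91 to 2.38 CPM, the count as a share of the library total scaled by the trimmed mean of M-values. At this depth 5641 genes passed the filter on low counts and were tested. A pair of abundant transcripts without a description, CATHA_38647 and CATHA_11833, took 20.2 to 23.9% of the counts indoors and 28.1 to 42.0% outdoors, the highest share being in outdoors replicate 3. Indoors replicate 3 stood nearer to the outdoors libraries than its group: its log2 CPM correlated with theirs at 0.833 to 0.872 over the tested genes, against 0.773 to 0.827 for indoors replicates 1 and 2, while libraries of 1 growth condition correlated at 0.907 to 0.934 indoors and 0.908 to 0.915 outdoors. Results that rest on that library are given with and without it.

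Of the 5641 genes tested, 367 were higher and 376 were lower outdoors. A call asked for an adjusted p up to 0.05 (edgeR quasi-likelihood test) and a log2 fold change of 1 or more in size. These calls made up 13.2% of the genes tested, 6.51% higher and 6.67% lower. The 3 outdoors libraries lay wholly above or below the 3 indoors libraries in 719 of the 743 called genes, and in 34.1% of all tested genes. The standard error of a called log2 fold change had a median of 0.38. Without indoors replicate 1 the count fell to 489 genes, and without indoors replicate 3 it rose to 858, of which 637 were shared with the 743. The higher genes numbered 235 without indoors replicate 1, and the lower genes 245 without indoors replicate 2 and 244 without outdoors replicate 1.

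**Figure D1:**
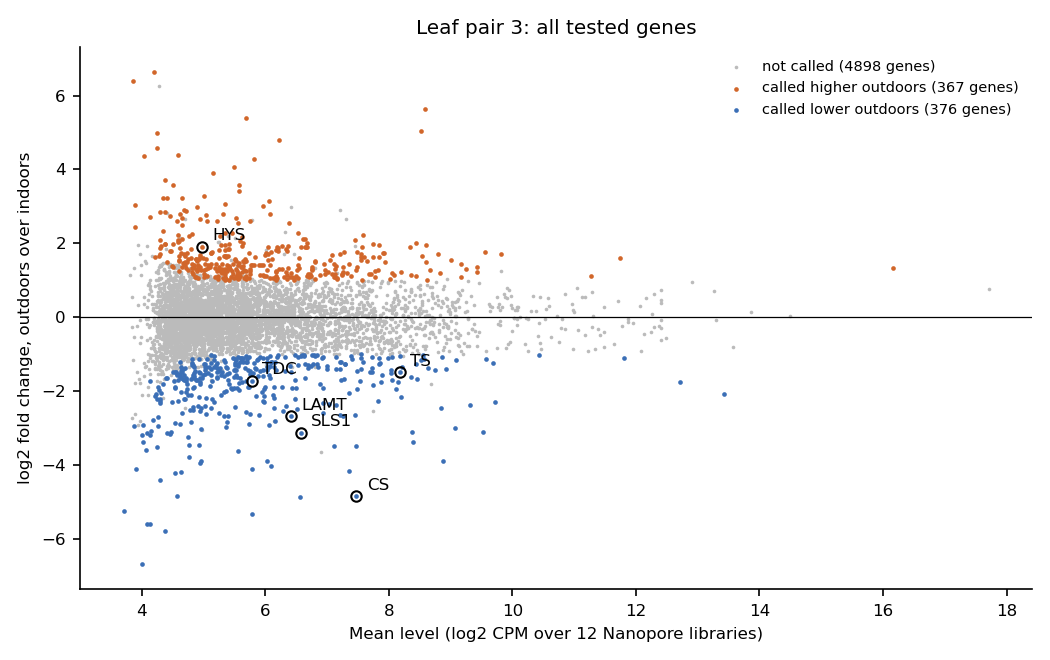
Each point is 1 of the 5641 tested genes, with its mean level over the 12 Nanopore libraries in log2 CPM on the x axis and its log2 fold change, outdoors over indoors in leaf pair 3, on the y axis. Called genes, 367 higher and 376 lower, lie on both sides of 0, and 6 MIA genes are ringed, of which CS lies lowest at a log2 fold change of -4.85 and HYS alone lies above 0.

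Called genes fell in the iridoid, indole, central and late steps of the MIA pathway. In all of these but the indole step, the fallen genes stood beside tested genes that were not called. Of 48 enzyme genes with a row in the files, 30 were tested, of which 16 fell, 1 rose and 13 were not called. Their median log2 fold change was -1.13, against -0.04 over all tested genes, whose calls were lower in 6.67% and higher in 6.51% of cases. Outdoors lay wholly below indoors in 23 of the 30, and in 17.9% of all tested genes. In whole leaves, fewer cells of a type and less RNA in each cell cannot be told apart. The gene models of SLS1 to SLS4 are near copies that can share reads, and no strand setting is given for the counting, so their separate levels are uncertain. An enzyme gene of the central pathway was not analysed here.

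Among the 10 tested iridoid genes, 6 fell and 4 were not called, and the median log2 fold change was -1.42. The genes of the epidermal end of the branch fell the most. LAMT, the methyltransferase that makes loganin, had 142, 78.0 and 69.9 CPM in the 3 indoors libraries and 6.40, 21.5 and 17.2 CPM in the 3 outdoors libraries. Every indoors library thus held more than every outdoors library, and the log2 fold change was -2.67 (SE 0.394, adjusted p = 2.1e-05).

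Secologanin synthase closes the branch by opening the loganin ring. SLS1 had 172, 91.8 and 93.2 CPM indoors and 6.40, 14.3 and 19.1 CPM outdoors, a log2 fold change of -3.13 (SE 0.4, adjusted p = 3.7e-06). SLS2 had 120.0, 131 and 69.9 CPM indoors and 8.53, 23.8 and 13.3 CPM outdoors, a log2 fold change of -2.81 (SE 0.367, adjusted p = 4.4e-06). The groups were apart for both copies, and also for SLS4, at 25.4 to 52.4 CPM indoors and 3.81 to 8.53 CPM outdoors (log2 fold change -2.63, SE 0.504). SLS3 was not called. It had 55.1 to 86.8 CPM indoors and 34.1 to 59.6 CPM outdoors, so that the groups overlapped, with a log2 fold change of -0.70 (SE 0.312, adjusted p = 0.13).

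The earlier iridoid genes, which are active in the internal phloem-associated parenchyma, had smaller differences. IO, iridoid oxidase, had 148, 119 and 72.0 CPM indoors and 51.2, 62.0 and 24.8 CPM outdoors. The groups did not overlap, indoors replicate 3 being the lowest of its group, and the log2 fold change was -1.31 (SE 0.337, adjusted p = 0.0073). 8HGO, the oxidoreductase that makes 8-oxogeranial, had 56.7, 22.9 and 25.4 CPM indoors and 4.26, 11.9 and 19.1 CPM outdoors (log2 fold change -1.53, SE 0.511, adjusted p = 0.039). Its call rested on few counts and ended without indoors replicate 1 (log2 fold change -0.997, adjusted p = 0.31), without outdoors replicate 1 (-1.10, adjusted p = 0.2) and without outdoors replicate 2 (-1.49, adjusted p = 0.093). The call of 8HGO also ended with DESeq2 (-1.51, adjusted p = 0.093) and with limma (-1.26, adjusted p = 0.071). That of IO ended without indoors replicate 1 (-1.07, adjusted p = 0.073) and without outdoors replicate 3 (-0.96, adjusted p = 0.07). G8H, geraniol 8-hydroxylase, IS, iridoid synthase, and 7DLH, 7-deoxyloganic acid hydroxylase, had log2 fold changes of -0.70, -0.81 and 0.40 and were not called, and 7DLGT, the glucosyltransferase that acts before 7DLH, was below the filter with 16 counts indoors and 11 outdoors.

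The indole branch supplies tryptamine, made by TDC, tryptophan decarboxylase, and STR, strictosidine synthase, couples it to secologanin. TDC had 50.2, 71.1 and 42.4 CPM indoors and 6.40, 26.2 and 17.2 CPM outdoors, without overlap (log2 fold change -1.72, SE 0.401, adjusted p = 0.0033). STR had 39.3, 39.0 and 29.6 CPM indoors and 10.7, 11.9 and 13.3 CPM outdoors (log2 fold change -1.56, SE 0.484, adjusted p = 0.025). The STR libraries also lay apart, but its 49 and 17 counts left little room: leaving out any of 5 leaf pair 3 libraries (all but indoors replicate 3) put its adjusted p between 0.059 and 0.1, with a log2 fold change of -1.44 to -1.61. The call of STR also ended with DESeq2 (-1.54, adjusted p = 0.082) and with limma (-1.28, adjusted p = 0.32). The IDs of TDC and STR, CATHA_23616 and CATHA_23617, follow that of CrMATE1, CATHA_23615, a transporter gene. The log2 fold change of CrMATE1, -0.57, was not called (SE 0.342, adjusted p = 0.27). SGD, strictosidine glucosidase, was read once in each growth condition and was not tested.

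Of the 7 tested central genes, 6 fell and GS1 was not called, with a median log2 fold change of -1.5, and outdoors lay wholly below indoors in all 7. The largest difference was that of CS, catharanthine synthase, with 371, 177 and 91.1 CPM indoors and 4.26, 11.9 and 5.72 CPM outdoors. The lowest indoors library, replicate 3, was still well above the highest outdoors library. The log2 fold change was -4.85 (SE 0.519, adjusted p = 4.4e-06), a level 28.8-fold lower, on 290 and 10 counts. TS, tabersonine synthase, which uses the same precursor, had 491, 413 and 368.5 CPM indoors and 115, 145 and 189 CPM outdoors (log2 fold change -1.5, SE 0.262, adjusted p = 0.00019). The CPM of CS divided by that of TS, a ratio chosen after these values were seen and not set per length, was 0.756, 0.428 and 0.247 indoors and 0.037, 0.082 and 0.0303 outdoors. CS thus fell relative to TS in all 3 outdoors libraries.

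Besides STR, the other central genes that fell were Redox1, Redox2 and SAT. Redox1, a reductase on the way to stemmadenine, had 530, 505 and 407 CPM indoors and 194, 200.3 and 250 CPM outdoors (log2 fold change -1.16, SE 0.237, adjusted p = 0.00097). Redox2, the reductase that follows it, had 122, 126 and 144 CPM indoors and 53.3, 45.3 and 51.5 CPM outdoors (log2 fold change -1.38, SE 0.292, adjusted p = 0.0013). Neither overlapped, and Redox2 was highest in indoors replicate 3. SAT, stemmadenine acetyltransferase, was at 36.0 to 48.0 CPM indoors and 8.53 to 21.5 CPM outdoors (log2 fold change -1.51, SE 0.405, adjusted p = 0.01). Its call ended without indoors replicate 1 (-1.38, adjusted p = 0.058) and without outdoors replicate 1 (-1.21, adjusted p = 0.084). DESeq2 did not call it either (-1.48, adjusted p = 0.052).

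GS1, a geissoschizine synthase, missed the call by its size only, at 186 to 270.5 CPM indoors and 76.8 to 153 CPM outdoors (log2 fold change -0.96, SE 0.282, adjusted p = 0.018). Its relative GS2 was below the filter, with 7, 6 and 5 counts indoors and 0 in each outdoors library, which is at least 6.2-fold lower with 3 counts over the group taken as the floor, by counting error only. PAS, precondylocarpine acetate synthase, had 12 counts indoors and 1 outdoors, a ratio of 12.4 with an exact 95% counting interval of 1.84 to 530. DPAS, the reductase after it, had 19 and 6 counts.

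**Figure D2:**
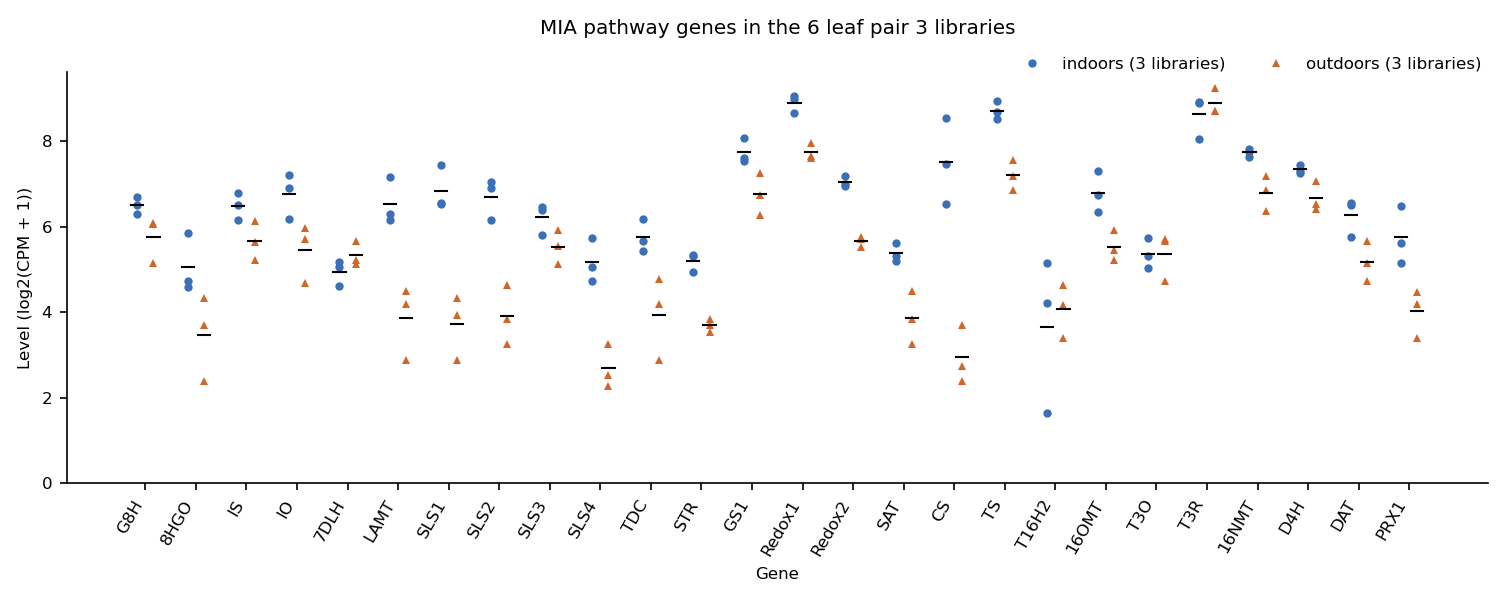
Levels of 26 MIA pathway genes in the 6 leaf pair 3 libraries as log2(CPM + 1), in the order of the pathway from left to right; each point is 1 library, indoors as circles and outdoors as triangles, and the bars are means of 3. The groups lie far apart from LAMT to SLS4, leaving out SLS3, and at CS, and overlap in genes such as T16H2, T3O and T3R.

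The late list runs from tabersonine to vindoline and also holds PRX1, a gene put forward for the coupling step. Of its 8 tested genes, 3 fell (16OMT, DAT and PRX1) and 5 were not called, and the median log2 fold change was -0.78. 16OMT, the methyltransferase of 16-hydroxytabersonine, had 157, 106 and 80.5 CPM indoors and 42.6, 59.6 and 36.2 CPM outdoors (log2 fold change -1.32, SE 0.307, adjusted p = 0.0033). DAT, which acetylates deacetylvindoline in the last step to vindoline, had 93.8, 89.5 and 52.9 CPM indoors and 25.6, 50.1 and 34.3 CPM outdoors (log2 fold change -1.11, SE 0.32, adjusted p = 0.016). The groups of both were apart, those of DAT only narrowly. Leaving out indoors replicate 1 ended both calls, at a log2 fold change of -1.01 for 16OMT (adjusted p = 0.058) and -0.96 for DAT (adjusted p = 0.11). For DAT, leaving out indoors replicate 2 (-0.96, adjusted p = 0.11), outdoors replicate 1 (-0.87, adjusted p = 0.13) or outdoors replicate 3 (-1.03, adjusted p = 0.064) did so too. DAT was also not called with DESeq2 (-1.06, adjusted p = 0.062) or without a filter on low counts (-1.06, adjusted p = 0.051).

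PRX1, a vacuolar class III peroxidase thought to couple catharanthine and vindoline, had 48.0, 34.4 and 88.9 CPM indoors and 21.3, 9.54 and 17.2 CPM outdoors, so that indoors replicate 3 was here the highest (log2 fold change -1.81, SE 0.417, adjusted p = 0.003). The steps between gave smaller values. 16NMT, an N-methyltransferase, had a log2 fold change of -0.91 (SE 0.25, adjusted p = 0.012) and D4H, a hydroxylase, one of -0.66 (SE 0.271, adjusted p = 0.095), both with outdoors wholly below indoors. T3O and T3R, the oxidase and reductase that act together on the tabersonine skeleton, had log2 fold changes of 0.05 (SE 0.342) and 0.23 (SE 0.248), with overlapping groups, and T16H2, a hydroxylase, one of -0.11 (SE 0.579). T3R stood at 267 to 484 CPM indoors and 420 to 606 CPM outdoors.

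HYS, heteroyohimbine synthase, which leads strictosidine aglycone away from this route, was the enzyme gene that rose. It had 19.6, 9.18 and 0 CPM indoors and 36.2, 31 and 41.9 CPM outdoors, on 13 and 52 counts (log2 fold change 1.91, SE 0.519, adjusted p = 0.011). Every outdoors library was above every indoors library, but the indoors value of 0 was that of replicate 3, and without that library the log2 fold change was 1.32 (adjusted p = 0.053). The other 3 tested genes of the branches, THAS2 and THAS3, which make heteroyohimbine alkaloids, and VAS, had log2 fold changes of -0.39, -0.17 and -0.34 and were not called.

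Of 7 known MIA transporter genes, 3 were tested and 1 fell, against 6.67% of all tested genes. CrNPF2.9, which exports strictosidine from the vacuole, had 34.9, 29.8 and 33.9 CPM indoors and 10.7, 7.15 and 9.53 CPM outdoors (log2 fold change -1.81, SE 0.482, adjusted p = 0.0096), without overlap. Its call ended with limma on unrounded counts (-1.45, adjusted p = 0.1). Of 18 regulators of the pathway only 4 passed the filter, and none was called; the most abundant, ZCT3, a zinc finger repressor, was at 65.7 to 116 CPM indoors and 46.9 to 64.8 CPM outdoors (log2 fold change -0.55, SE 0.421, adjusted p = 0.42). ORCA3, an AP2 activator of the pathway, had 30 counts indoors and 10 outdoors and was not tested, and ORCA2, ORCA4, ORCA5 and ORCA6 had 0 to 4 counts in either growth condition.

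The cell types that share the pathway were read through 3 marker lists, which overlap with the pathway itself. Among all tested genes, 6.67% were called lower. Of 8 epidermis genes (SLS1 to SLS4, LAMT, TDC, STR and SGD), 7 were tested and 6 fell, and their summed level was 417 to 659 CPM indoors and 81.0 to 162 CPM outdoors. Of 6 genes of the internal phloem-associated parenchyma, 5 were tested and 2 fell (8HGO and IO), and the sum was 271 to 471 CPM indoors and 160 to 267 CPM outdoors. Thus both sums were lower outdoors in every library, the second only just. At most 1 epidermis gene was at 0 in any library, and no parenchyma gene was.

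Idioblast markers were genes chosen in the study as high in sorted idioblasts. Of 25 such markers, 10 were tested, 5 fell and none rose, with a median log2 fold change of -1.06. With DESeq2, 2 of the 10 fell. The same number fell without indoors replicate 1, indoors replicate 2 or outdoors replicate 1. Among all tested genes 6.67% fell. The sum of the 25 markers was 2492 to 3056 CPM indoors and 1395 to 1961 CPM outdoors, and 3 to 7 of the 25 were at 0 in a library. Much of this sum in every library was the single gene CATHA_32017, whose levels are given below. The members that fell were DAT, CATHA_32017 and CATHA_5494, which encode major latex proteins, CATHA_18104, a beta-amylase that breaks down starch, and CATHA_22670, a phytocyanin. CATHA_18760, an abscisic stress-ripening protein, went the other way, at 257 to 337 CPM indoors and 439 to 682 CPM outdoors, below the fold required (log2 fold change 0.82, SE 0.253, adjusted p = 0.023). D4H, which the paper names beside DAT as an idioblast marker, was not among the 25 and was not called (-0.66, SE 0.271, adjusted p = 0.095). The part that a change in the number of idioblasts had in the pathway values was not tested. The lists used here held a part of the candidate transporters (10 genes) and candidate cytochromes P450 (9 genes) of idioblasts, and each had 2 tested genes, none of them called by edgeR. The most abundant were CATHA_26821, an NPF2 transporter (log2 fold change -0.55, SE 0.449), and CATHA_29341, described as like tabersonine 16-hydroxylase (-0.55, SE 0.314).

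The major latex proteins, abundant small proteins linked to defence, were not of 1 kind. CATHA_32017 had 1900.0, 1852 and 1556 CPM indoors and 661, 884.5 and 1084 CPM outdoors (log2 fold change -1.01, SE 0.241, adjusted p = 0.0039), and CATHA_5494 had 412, 454 and 292 CPM indoors and 134, 129 and 191 CPM outdoors (-1.35, SE 0.263, adjusted p = 0.00061). Both fell without overlap, but the first lay close to the fold required and lost its call in 13 of 21 alternative fits. Among these were RLE scaling (-0.967), DESeq2 (-0.967), the fit of the 6 leaf pair 3 libraries alone (-0.978), and the fits without indoors replicate 1 (-0.96), indoors replicate 2 (-0.93), outdoors replicate 1 (-0.81) or outdoors replicate 2 (-0.98). CATHA_15668, which the paper reports as the gene most expressed in idioblasts, was the most abundant of them. It kept a similar level, 4952 to 5258 CPM indoors and 4766 to 5884 CPM outdoors (log2 fold change 0.08, SE 0.22). Of the 8 tested defence genes 3 fell, against 6.67% of all tested genes. The third was CATHA_29872, like the nematode resistance protein HSPRO2 (-1.70, SE 0.439, adjusted p = 0.0077). Its call ended without indoors replicate 2 (-1.46, adjusted p = 0.067) or outdoors replicate 1 (-1.35, adjusted p = 0.062).

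**Figure D3:**
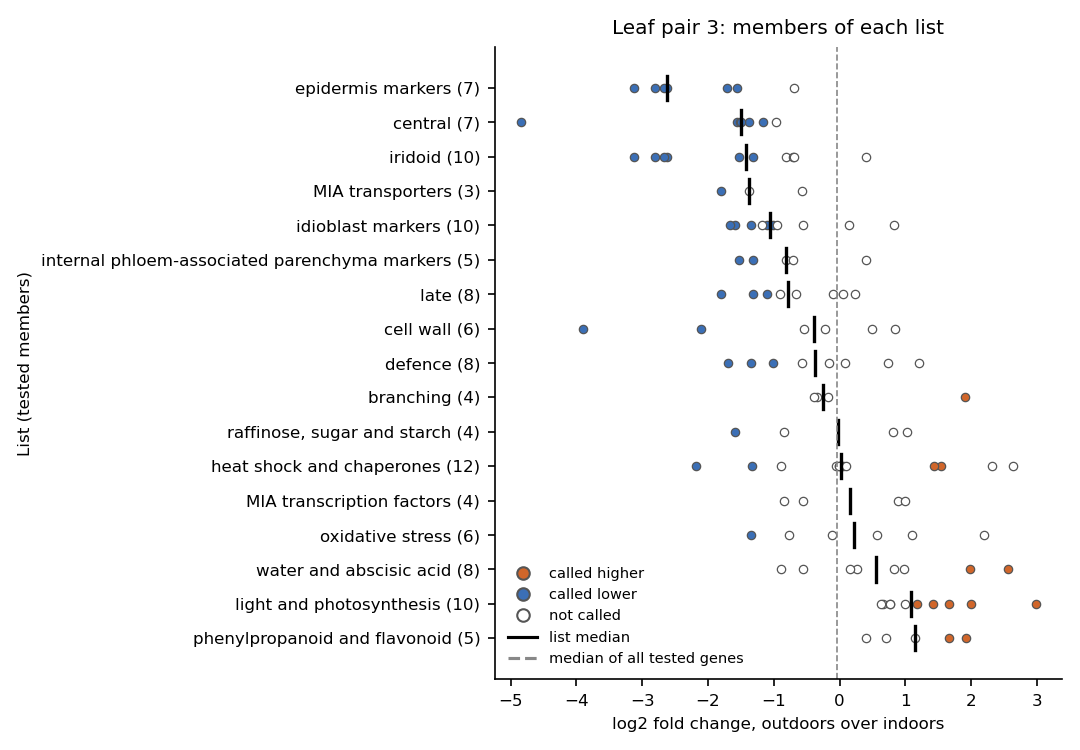
Each point is 1 tested gene of a list, placed by its log2 fold change, outdoors over indoors in leaf pair 3, and filled where it was called; the black bar is the list median and the dashed line the median of all 5641 tested genes, -0.04. Epidermis, central and iridoid genes lie to the left, light and phenylpropanoid genes to the right, and most other lists straddle the line.

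The tested genes of the light and photosynthesis list were higher outdoors. The list was chosen with earlier results of these data known, so it does not stand for photosynthesis genes as a class. Of its 10 tested genes, 5 rose, against 6.51% of all tested genes, and none fell. Their median log2 fold change was 1.08, and outdoors lay wholly above indoors in 9 of them, against 16.2% of all tested genes. Their summed level was 388 to 414 CPM indoors and 934 to 1333 CPM outdoors. CATHA_4059, proton gradient regulation 5, is a protein linked to cyclic electron flow around photosystem I. It had 185, 206 and 186 CPM indoors and 783, 465 and 574 CPM outdoors (log2 fold change 1.65, SE 0.263, adjusted p = 5.2e-05). CATHA_35300, a subunit of the photosynthetic NDH complex, had 0, 6.88 and 6.35 CPM indoors and 46.9, 33.4 and 30.5 CPM outdoors (log2 fold change 2.99, SE 0.53, adjusted p = 0.00023), on 6 and 52 counts. Both were apart in all libraries.

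CATHA_26688, a carbonic anhydrase, which interconverts carbon dioxide and bicarbonate, had 26.2, 9.18 and 16.9 CPM indoors and 102, 71.5 and 40.02 CPM outdoors (log2 fold change 2.00, SE 0.462, adjusted p = 0.0042). CATHA_20002, the protein PLASTID MOVEMENT IMPAIRED 2, known in Arabidopsis for light-driven chloroplast movement, was at 6.88 to 19.6 CPM indoors and 33.4 to 42.6 CPM outdoors (log2 fold change 1.41, SE 0.44, adjusted p = 0.025). CATHA_9484, low PSII accumulation 3, an assembly factor of photosystem II, was at 16.1 to 19.1 and 34.3 to 47.7 CPM (1.17, SE 0.414, adjusted p = 0.049). All 3 were above every indoors library in every outdoors library. The call of CATHA_9484 ended without any single leaf pair 3 library, at adjusted p between 0.054 and 0.14. That of CATHA_20002 ended without indoors replicate 2 (1.16, adjusted p = 0.13) or outdoors replicate 1 (1.35, adjusted p = 0.079). Both calls also ended with DESeq2 (adjusted p = 0.15 for CATHA_9484 and 0.089 for CATHA_20002) and with limma (0.12 and 0.093).

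Of the 8 tested genes of the water and abscisic acid list, 2 rose and none fell, against 6.51% higher and 6.67% lower among all tested genes. CATHA_22518, drought-induced protein 1, had 21.8, 32.1 and 21.2 CPM indoors and 200.4, 126 and 116 CPM outdoors (log2 fold change 2.55, SE 0.335, adjusted p = 4.4e-06). CATHA_18761, an abscisic stress-ripening protein, a family of small proteins induced by drying, had 93.8, 98.7 and 119 CPM indoors and 243, 455 and 538 CPM outdoors (log2 fold change 1.99, SE 0.343, adjusted p = 0.00041). Every outdoors value was above every indoors value in both. The dehydrins, which protect cells that lose water, gave smaller values: CATHA_19823 had a log2 fold change of 0.97 (SE 0.293, adjusted p = 0.021) and CATHA_13610 one of 0.27 (SE 0.238, adjusted p = 0.49). The list's median was 0.54.

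Among 5 tested phenylpropanoid and flavonoid genes 2 rose, against 6.51% of all tested genes. CATHA_21954, a flavonol synthase, which makes ultraviolet-absorbing flavonols, had 41.4, 20.6 and 21.2 CPM indoors and 183, 85.8 and 49.6 CPM outdoors, a spread of levels that was wide but did not reach the indoors range (log2 fold change 1.92, SE 0.477, adjusted p = 0.01). CATHA_32349, a 4-coumarate-CoA ligase at the entry to lignin and flavonoids, was at 6.54 to 10.6 CPM indoors and 17.1 to 32.4 CPM outdoors (1.66, SE 0.495, adjusted p = 0.019). On its 11 and 37 counts, the call ended without indoors replicate 1 (1.54, adjusted p = 0.089), indoors replicate 2 (1.62, adjusted p = 0.071) or outdoors replicate 3 (1.49, adjusted p = 0.083). It also ended with DESeq2 (1.74, adjusted p = 0.068) and with limma (1.25, adjusted p = 0.095).

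Heat shock and chaperone genes were called in both directions by edgeR. Among all tested genes, 6.51% were called higher and 6.67% lower. Of 12 tested heat shock and chaperone genes, 2 rose and 2 fell. Their median log2 fold change was 0.02, a value that depended on which members passed the filter. Those that rose were CATHA_35432, the chloroplast chaperone ClpB3 (log2 fold change 1.43, SE 0.444, adjusted p = 0.024), and CATHA_33839, RbcX protein 2, which helps Rubisco to assemble (1.54, SE 0.526, adjusted p = 0.041). Those that fell were CATHA_15979, a J domain protein, at 34.4 to 55.1 CPM indoors and 7.15 to 11.4 CPM outdoors (-2.19, SE 0.431, adjusted p = 0.00067), and CATHA_20654, a mitochondrial chaperonin (-1.33, SE 0.378, adjusted p = 0.018). The calls of CATHA_35432, CATHA_33839 and CATHA_20654 each ended without at least 3 single leaf pair 3 libraries. The lowest log2 fold changes among those fits were 1.22 for CATHA_35432, without outdoors replicate 1, and 1.31 for CATHA_33839, without indoors replicate 2. That of CATHA_20654 was -1.07 without outdoors replicate 3. With DESeq2 and with limma, none of the list was called higher. The adjusted p of CATHA_35432 was 0.078 with DESeq2 and 0.053 with limma, and that of CATHA_33839 was 0.11 and 0.078.

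Some genes of small heat shock proteins, which bind unfolding proteins, were high in 1 library and not called. Others were not, such as CATHA_27870, at 4.36 to 14.8 CPM indoors and 1.91 to 2.38 CPM outdoors. CATHA_20705, a class II member, had 17.5, 13.8 and 8.47 CPM indoors and 175, 14.3 and 11.4 CPM outdoors (log2 fold change 2.32, SE 1.67, adjusted p = 0.42). CATHA_5080 had 13.1, 9.18 and 2.12 CPM indoors and 115, 28.6 and 11.4 CPM outdoors (2.63, SE 1.78, adjusted p = 0.38). CATHA_1247, a chloroplast member, was read 187 times in outdoors replicate 1, 0 times in the other outdoors libraries and once in all indoors libraries, and so did not pass the filter. Outdoors replicate 1 stood far above both its neighbours in CATHA_20705, CATHA_5080 and CATHA_1247. Outdoors replicate 2 of CATHA_5080 was also above the indoors range. The summed level of the list was 784 to 805 CPM indoors and 1625, 629 and 678 CPM outdoors. CATHA_22147, an L-ascorbate peroxidase, which removes hydrogen peroxide, had the same order, with 136, 33.4 and 15.2 CPM outdoors against 6.88 to 21.8 CPM indoors (2.2, SE 1.34, adjusted p = 0.32). Of 6 tested oxidative stress genes only CATHA_29428, Oxidative stress 3, was called, and it fell (-1.35, SE 0.416, adjusted p = 0.023). Among all tested genes 6.67% fell. The call of CATHA_29428 ended without indoors replicate 1 (-1.21, adjusted p = 0.11), indoors replicate 2 (-1.33, adjusted p = 0.073), outdoors replicate 2 (-1.25, adjusted p = 0.078) or outdoors replicate 3 (-1.05, adjusted p = 0.13). It also ended with DESeq2 (-1.31, adjusted p = 0.099) and with limma (-1.24, adjusted p = 0.21).

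**Figure D4:**
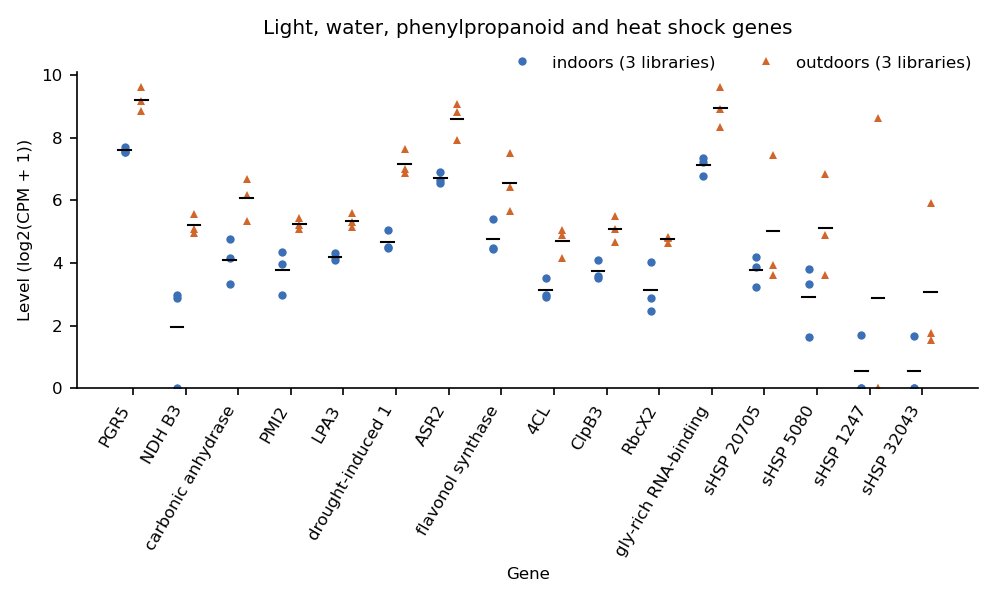
Levels of 16 genes in the 6 leaf pair 3 libraries as log2(CPM + 1); each point is 1 library, indoors as circles and outdoors as triangles, and the bars are means of 3. The first 12 genes, of light, water, phenylpropanoid and chloroplast chaperone roles, have all outdoors points above all indoors points, while the 4 small heat shock genes (sHSP, with the number of the gene ID) have a single high outdoors point, that of replicate 1.

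The largest falls among described genes included CATHA_34276 and CATHA_19049. CATHA_34276, a GDSL esterase/lipase, an enzyme family that acts on lipids and cutin, had 318, 213 and 129 CPM indoors and 2.13, 14.3 and 19.1 CPM outdoors (log2 fold change -4.17, SE 0.422, adjusted p = 3.9e-07). CATHA_19049, a glycine-rich cell wall protein, had 155, 94.1 and 76.2 CPM indoors and 6.40, 2.38 and 11.4 CPM outdoors (-3.89, SE 0.416, adjusted p = 3.2e-07). Both groups were far apart, and indoors replicate 3 was the lowest of its group in both. A second glycine-rich wall protein, CATHA_22855, was at 32.7 to 78.0 and 7.15 to 21.3 CPM (-2.11, SE 0.434, adjusted p = 0.001). These glycine-rich proteins were the 2 that fell among 6 tested cell wall genes, against 6.67% of all tested genes. The other 4 of the list were uncalled between -0.54 and 0.84. CATHA_12004, a proline-rich protein outside that list, fell from 289 to 383 CPM indoors to 116 to 169 CPM outdoors (-1.23, SE 0.267, adjusted p = 0.0017).

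CATHA_18851, a histone, had 164, 144 and 25.4 CPM indoors and 2.13, 2.38 and 5.72 CPM outdoors (log2 fold change -4.86, SE 0.875, adjusted p = 0.0033). Histone genes are expressed most in dividing cells. Indoors replicate 3 lay between the other indoors libraries and the outdoors libraries. Other described genes that fell were CATHA_21739, a dioxygenase described as AOP2 (-2.30, SE 0.43), CATHA_26129, a polcalcin-like calcium-binding protein (-1.96, SE 0.371), CATHA_11493, an acyl carrier protein of fatty acid synthesis (-1.57, SE 0.281), and CATHA_23090, a tonoplast aquaporin (-1.03, SE 0.271). CATHA_23144, a Pro-X carboxypeptidase, had a log2 fold change of -1.79 (SE 0.513, adjusted p = 0.021). The call of CATHA_23090 was lost in 12 of 21 alternative fits, among them RLE scaling (-0.98), DESeq2 (-0.98), limma (-0.96), the replicate block (-0.99) and the fits without any of 4 single leaf pair 3 libraries (-0.78 to -0.98). That of CATHA_23144 was lost without any of 4 single leaf pair 3 libraries, at -1.41 to -1.78. CATHA_18104, the beta-amylase, was at 50.8 to 101 CPM indoors and 15.2 to 31 CPM outdoors (-1.59, SE 0.358, adjusted p = 0.0024). It was the only call among 4 tested genes of sugar and starch, while 6.67% of all tested genes fell. CATHA_22670, the phytocyanin, was called at -1.66 (SE 0.527, adjusted p = 0.028). It was not called without indoors replicate 1 (-1.38, adjusted p = 0.16), indoors replicate 2 (-1.66, adjusted p = 0.072), outdoors replicate 1 (-1.84, adjusted p = 0.058) or outdoors replicate 3 (-1.20, adjusted p = 0.16). Neither DESeq2 (-1.62, adjusted p = 0.095) nor limma (-1.35, adjusted p = 0.079) called it.

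Other described genes rose outside the lists. CATHA_15282, a glycosyltransferase, had 2.18, 4.59 and 6.35 CPM indoors and 53.3, 40.5 and 36.2 CPM outdoors (log2 fold change 3.22, SE 0.532, adjusted p = 9e-05). CATHA_6696, a DETOXIFICATION (MATE) transporter, was at 6.35 to 16.1 and 45.3 to 66.1 CPM (2.2, SE 0.414, adjusted p = 0.00041). CATHA_36730, a cytochrome P450 like ferruginol synthase, was at 11.5 to 21.2 and 34.3 to 78.7 CPM (1.83, SE 0.441), and CATHA_9937, a polyprenyl diphosphate synthase, at 27.5 to 37.1 and 100.1 to 122 CPM (1.84, SE 0.292). None of the 4 overlapped.

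Further genes named for the size of their change were of various roles. CATHA_35380, a subunit of the cytochrome b-c1 complex of respiration, was at 4.36 to 14.8 CPM indoors and 47.6 to 83.2 CPM outdoors (log2 fold change 2.61, SE 0.456, adjusted p = 0.00019), and CATHA_7653, like mitochondrial uncoupling protein 5, at 27.5 to 48.2 and 53.4 to 203 CPM (1.94, SE 0.438, adjusted p = 0.005). CATHA_19252, a Ste24 endopeptidase, was at 4.59 to 12.7 and 30.5 to 83.2 CPM (2.67, SE 0.499, adjusted p = 0.00039). CATHA_28326, a DCD domain protein, had a log2 fold change of 2.62 (SE 0.51) and CATHA_28259, described as an asparaginase, one of 2.91 (SE 0.645). Among abundant genes, CATHA_9903, a glycine-rich RNA-binding protein, went from 164, 149 and 110.1 CPM indoors to 785, 482 and 322 CPM outdoors (1.91, SE 0.339, adjusted p = 0.00056).

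Only 82 of the 743 called genes had a description in the study's tables, which favour genes of idioblasts and of the MIA pathway. The largest changes lay among genes without one. CATHA_34455 had 4.36, 9.18 and 36.0 CPM indoors and 736, 806 and 1004 CPM outdoors, a log2 fold change of 5.64 (SE 0.437, adjusted p = 6.8e-08). CATHA_23342 was read 2 times indoors and 105 times outdoors, at 64.0 to 87.7 CPM in the outdoors libraries, a ratio of 50.8 with an exact 95% counting interval of 13.7 to 425. In the other direction CATHA_26004 was read 94 and 2 times, 48.6-fold fewer outdoors (13.1 to 407), and CATHA_31488 was read 60 and 3 times, 20.7-fold fewer (6.75 to 103). In all 4 the groups were apart. CATHA_11833, the second most abundant transcript, was called higher (1.33, SE 0.269, adjusted p = 0.00087).

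The same contrast was read in the other leaf pairs. In leaf pair 2, 339 genes were higher and 236 were lower (10.2% of those tested, 6.01% higher and 4.18% lower). Of the 367 genes higher in leaf pair 3, 210 were also called higher in leaf pair 2, which is 57.2% of the first list and 61.9% of the second; of the 376 lower genes, 146 were, 38.8% and 61.9%. The difference between the changes of both leaf pairs was tested for each gene, and 0 genes passed by edgeR, with 238 at an unadjusted p under 0.05 and a smallest adjusted p of 0.14; DESeq2 called 0 too. Leaf pairs 2 and 3 of a growth condition came from the same plants, and with the plant, taken from the replicate number, as a block, the test called 9 genes, all with a more negative difference in leaf pair 3. CS was among them (-2.68, adjusted p = 0.012).

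The count of 0 also changed without a filter on low counts, to 5 genes, and without indoors replicate 3 of leaf pair 3. Without that library, 6 genes passed, all with a more negative difference in leaf pair 3, and those with a known name or description are given here, chosen after their values were seen. For CS, whose log2 fold change was -1.92 (SE 0.373) in leaf pair 2 and -4.85 in leaf pair 3, the difference was -2.92 (adjusted p = 0.46) with that library and -3.29 (adjusted p = 0.0025) without it. For CATHA_34276, the GDSL esterase/lipase, it was -2.32 (adjusted p = 0.46) with it and -2.60 (adjusted p = 0.026) without it. For CATHA_18851, the histone, it was -3.17 (not called) with it and -3.65 (adjusted p = 0.0087) without it. Neither CATHA_34276 nor CATHA_18851 was called for this difference with the plant as a block.

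Leaf pairs 1 and 4, measured by Illumina and so not tested against leaf pair 3, gave 713 higher (4.12%) and 424 lower genes (2.45%), 6.57% in all, and 995 higher (5.75%) and 1975 lower genes (11.4%), 17.2% in all. Of the 371 lower genes of leaf pair 3 that were tested there, 248 (66.8%) were called lower in leaf pair 4 and 69 (18.6%) in leaf pair 1, which are 48.3% and 69.0% of the calls of those leaf pairs among the genes tested in leaf pair 3. Of the 358 higher genes, 163 (45.5%) were called higher in leaf pair 4 and 199 (55.6%) in leaf pair 1. Depth and method differ between the platforms, and so does the number of genes tested.

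Side by side, CS had a log2 fold change of -4.80 (SE 0.689) in leaf pair 4, and TS one of -2 (SE 0.142). TDC had -1.29 in leaf pair 2, -1.72 in leaf pair 3 and -3.11 in leaf pair 4. IO and 8HGO, the genes of the internal phloem-associated parenchyma that fell in leaf pair 3, had -0.01 (SE 0.186) and -0.33 (SE 0.244) in leaf pair 4, and HYS had -0.02 in leaf pair 2 and 0.67 in leaf pair 4. CrNPF2.9 had 0.215 (SE 0.465) in leaf pair 2 and -1.44 in leaf pair 4. CATHA_35300, the NDH subunit, had 0.21 in leaf pair 2 and 0.98 in leaf pair 4. In leaf pair 1, CS had -0.36 (SE 0.466), TDC -0.36 (SE 0.439) and HYS 0.28 (SE 0.284), and none of these was called. CATHA_35300 was called higher there, at 1.39 (SE 0.231).

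**Figure D5:**
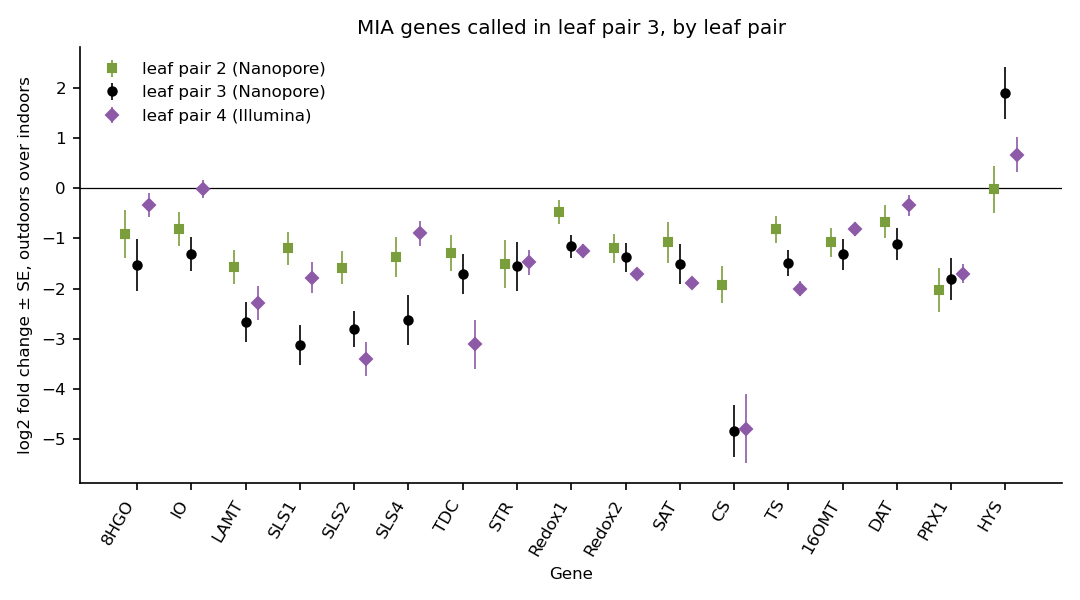
log2 fold changes, outdoors over indoors, of the 17 MIA enzyme genes called in leaf pair 3 (black circles) beside those of leaf pair 2 (squares, same Nanopore fit) and leaf pair 4 (diamonds, separate Illumina fit), with standard errors as bars. CS lies near -4.8 in leaf pairs 3 and 4 and at -1.92 in leaf pair 2, and HYS lies at 1.91 in leaf pair 3, -0.02 in leaf pair 2 and 0.67 in leaf pair 4.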

How the data were processed

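Leaf pair 3 was measured in 3 outdoors and 3 indoors Nanopore cDNA libraries, and grouped by the sample labels. The Nanopore values are estimated counts per gene, deposited by the authors without normalization. The authors oriented the reads, built the IDIO+ gene models from them and from Illumina reads on the C. roseus genome v2, and counted without a stated strand setting; Salmon 1.4.0 and minimap2 are named in the submitters' processing notes, and their role in the counting is not given in the sources used here. The Illumina counts of leaf pairs 1 and 4 were deposited by the authors as raw read counts, made with HISAT2 and featureCounts, with totals of 11567947 to 15122993. Expected counts were rounded to whole numbers and fitted over the 12 Nanopore libraries with edgeR 4.0.16 (filterByExpr with a minimum count of 10, TMM, robust quasi-likelihood test, R 4.3.3). Benjamini-Hochberg adjustment ran over all tested genes, and calls needed an adjusted p up to 0.05 with an absolute log2 fold change of 1 or more. Every adjusted p in the text is from edgeR unless another tool is named, and the SE is that of the log2 fold change. Leaf pairs 1 and 4 were fitted apart in the same way.

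Named genes were the called members of each list (for a list with none, its most abundant tested member), the 15 largest described changes in each direction whose groups did not overlap and that reached a mean of 40 CPM in the higher group, the 10 most abundant described calls, and in each direction 2 calls without a description. Other pathway genes are named to complete the steps. The members and lists were chosen with earlier results of these data known. Intervals and floors, at 95% and 3 counts, cover counting error only. No pair of libraries in a group agreed within sampling noise (chi-square per degree of freedom 1.68 or more). According to the methods the replicates are separate plants. Alternatives were RLE scaling, other filters on low counts, DESeq2 1.42.0, limma 3.58.1 on unrounded values, a replicate block, only the 6 libraries of a leaf pair, and each library left out in turn. The fit was tested on simulated data. The sorted-cell libraries were not used here.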

Additional observations from a re-analysis of the deposited data

How the results depend on the processing

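No called named gene changed sign under the alternatives run. The median log2 fold change of all tested genes, -0.04, lay between -0.04 and 0.0148, and the balance of 367 higher and 376 lower genes was 414 and 353 under RLE scaling. The median of the heat shock and chaperone list, 0.02 on 12 tested genes, was -0.00526 without outdoors replicate 1 of leaf pair 3, also on 12. It was 0.502 on 32 genes without a filter on low counts. In the fits that left out 1 library and tested 16 genes of the list, it lay between 0.769 and 0.877. The value thus changed with the members that passed the filter. Of the 61 called named genes, 40 kept their call in every setting that tested them. With DESeq2 13 of the 61 lost their call, and with limma 11 did. With a mean of at least 20 counts required, which left 2242 genes, 351 genes were called in leaf pair 3 (176 higher, 175 lower) and 352 in leaf pair 2. Leaving out each library in turn gave 489 to 858 calls in leaf pair 3, 235 to 439 higher and 244 to 443 lower, 327 to 628 calls in leaf pair 2 and 0 to 6 for the difference between the leaf pairs; the low end of leaf pair 2 was without its indoors replicate 2. DESeq2 called 545 genes in leaf pair 3, of which 518 were shared with the 743. Without a filter on low counts the difference between the leaf pairs was called in 5 genes. An alternative added after seeing the data, without the 2 most abundant transcripts, gave 740 calls, and another, without indoors replicate 1 of leaf pair 2 and indoors replicate 3 of leaf pair 3, gave 845. The causes of these shifts were not tested beyond the number of genes and libraries in each fit. At 1.91 to 2.38 CPM a count, genes of few counts, such as most regulators of the pathway, could not be tested.

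Equal replicate numbers did not pair the growth conditions. The deviations of leaf pair 3 libraries with the same number in both growth conditions, which came from different plants, correlated at -0.03 to 0.08, and those of leaf pairs 2 and 3 of a growth condition at 0.06 to 0.19 indoors and 0.17 to 0.43 outdoors. Each library correlated best with its own number across leaf pairs 2 and 3, although 1 of the 6 correlations was under 0.1 and the labels do not tie the numbers to plants. With the replicate number as a block, 842 genes were called in leaf pair 3 and 684 in leaf pair 2. With the plant, taken from the number, as a replicate block, 9 genes were called for the difference between the leaf pairs, all with a more negative value in leaf pair 3, among them CS (-2.68, adjusted p = 0.012 by edgeR).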

Other observations

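Some small heat shock genes, chosen and followed over all leaf pairs after their values in leaf pair 3 were seen, were uneven among the outdoors libraries in each. CATHA_1247 had 399, 0 and 0 CPM in outdoors replicates 1, 2 and 3 of leaf pair 3. It had 543, 8.84 and 7.91 CPM in those of leaf pair 2 and 99.3, 7.81 and 1.91 CPM in those of leaf pair 1. In leaf pair 4 the order differed, with 19, 258 and 2.27 CPM. CATHA_20705 had 175, 14.3 and 11.4 CPM in leaf pair 3, 612, 57.4 and 27.7 CPM in leaf pair 2, 110, 37.1 and 28.1 CPM in leaf pair 1, and 7.77, 13.9 and 3.78 CPM in leaf pair 4. Of 5 small heat shock genes followed (CATHA_1247, CATHA_20705, CATHA_5080, CATHA_32043 and CATHA_33389), replicate 1 was highest outdoors in leaf pairs 1, 2 and 3 for all 5. In leaf pair 3 this order was known when the genes were chosen. In leaf pair 4 replicate 2 was highest for 4 of the 5, and CATHA_33389 had 3.22, 3.02 and 1.09 CPM. Other small heat shock genes were not followed, such as CATHA_12830, with 2.13, 2.38 and 13.3 CPM outdoors in leaf pair 3.

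CATHA_12001, described as a hypothetical protein, was the only gene called in opposite directions in leaf pairs 3 and 4. It had 10, 4 and 5 counts indoors and 0 in each outdoors library of leaf pair 3, and a log2 fold change of 1.48 (SE 0.112) in leaf pair 4. The gene was chosen after its values were seen.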
